A study of Mus musculus with 182 samples.

Results

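The reproductive Nlrp family of the mouse was followed here through 9 genes, Nlrp2, Nlrp4a, Nlrp4b, Nlrp4c, Nlrp4f, Nlrp9a, Nlrp9b, Nlrp9c and Nlrp14, taken by name from a count table of 24499 genes. All 9 were also present in the tables of length-normalized signal (20711 genes) and allelic shares (15253 genes). The data were single-cell RNA-seq libraries of 182 cells, made by reverse transcription of polyadenylated RNA from its 3′ end, with 50-base single-end reads. The study asked how imprinted X inactivation depends on Xist. The family served here as a measure of maternal RNA and of its loss.

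The 7 oocytes were 4 from C57BL/6J (B6) and 3 from Cast/EiJ (Cast) females. The 106 wild-type blastomeres carried the genotype Xist wt/wt and came from reciprocal crosses, 68 from B6 mothers and Cast fathers (BC) and 38 from Cast mothers and B6 fathers (CB), at the 2-, 4-, 8-, 16-, 32- and 64-cell stages. The 69 mutant blastomeres (label Xist wt/ko) were all CB and covered the 8- to 64-cell stages with 60 female and 9 male cells. The deletion is of the paternal Xist allele, which the 60 female cells lacked. Males carry no paternal X, so the 9 male cells give the background of that collection. All embryos came from natural matings and none had been cultured. The labels name no embryo, so cells of 1 stage, cross, sex and genotype were added into 31 sums, 25 wild type and 6 mutant, of 1 to 25 cells each. These sums were the units of every test, and cells of a sum may share an embryo. The p-values therefore measure only the spread between sums, which differ in sex and cross. Total counts ranged from 2538818 to 40049961 per cell. Levels are given as CPM, the counts of a gene per 1000000 counts of a cell or sum. In oocytes, 9 oocyte markers summed to 14500 to 42700 CPM, and 10 cumulus and granulosa markers to 18.4 to 91.4 CPM, with Amh, Foxl2 and Inha at 0. Of these, Cyp19a1 (42.8 CPM in the B6 and 8.83 in the Cast sum) and Kitl (6.58 and 26.6 CPM) were the highest, and their part in the oocyte values was not tested. Xist, the deleted gene, had 4.59 to 533 CPM in CB wild-type females of the 16-, 32- and 64-cell stages and 0 to 8.51 CPM in mutant females. At 8 cells it had 4.5 to 80.1 CPM in wild type and 0 to 80.6 CPM in mutants. Of those 7 mutant cells, 5 held Xist reads, 2 of them 21.2 and 80.6 CPM and the other 3 at most 2.16 CPM. 1 female 2-cell blastomere was titled CB but carried BC in its strain label, and its title was followed.

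NLRP proteins carry a pyrin domain at the N-terminus, a nucleotide-binding NACHT domain and a run of leucine-rich repeats. Some members act as sensors of innate immunity in inflammasomes. The reproductive members are instead made mainly in oocytes, and several are maternal-effect genes, whose product in the egg supports the cleavage of the embryo. Their best known relative, Nlrp5 (also called MATER), is part of the subcortical maternal complex of oocytes and early embryos. Maternal mRNA is degraded in mouse embryos around the 2-cell stage, when the embryo's own genome becomes active.

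All members except Nlrp4f lie on chromosome 7 in GRCm38.p6. Nlrp2 (chr7:5298547-5351035, minus strand) and Nlrp4c (chr7:6045161-6105149, plus strand) lie near each other. Nlrp4b spans chr7:10687793-10730168 (plus strand) and Nlrp9b spans chr7:19991393-20062942 (plus strand). Nlrp9c (chr7:26364691-26403700, minus strand), Nlrp4a (chr7:26435113-26476142, plus strand) and Nlrp9a (chr7:26535023-26574148, plus strand) follow each other with no other gene of the count table between them. Nlrp14 spans chr7:107113455-107198103, and Nlrp4f lies apart at chr13:65177111-65205716 (minus strand). All 9 are annotated as protein coding. Of 10 genes of the count table between Nlrp2 and Nlrp4c, 3 reached a mean of 1 CPM. 1 of them, Gm5065, had 88.9 CPM in oocytes and 3.54 CPM at the 2-cell stage, while the vomeronasal receptor genes Vmn1r58 and Vmn1r65 had 0.0378 and 1.53 CPM in oocytes.

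RefSeq promoter sequences (250 bases before to 50 after each start, GRCm38.p6) were matched for 8 members with 10 annotated starts. The stretches below are shown because they hold the same 7 letters in 6 of these 8 members. Capitals mark CCAATCA, which contains the CCAAT box, the letters bound by the factor NF-Y.
Nlrp2, chr7:5351084-5351107, minus strand: cccaagggCCAATCAcagagctgg
Nlrp4a, chr7:26435556-26435579, plus strand, at the second of its annotated starts: agcgctggCCAATCAcatggcaac
Nlrp4b, chr7:10687731-10687754, plus strand: ctcattgaCCAATCAcatggtacc
Nlrp4c, chr7:6045135-6045158, plus strand: cgcattggCCAATCAcatggcacc
Nlrp9a, chr7:26535009-26535032, plus strand: gtatacagCCAATCAagaagctag
Nlrp9c, chr7:26403735-26403758, minus strand: gtgtacagCCAATCAagaagctag

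Searched on both strands, CCAATCA occurred in 7 of the 10 member promoters and in 7.82% of 32851 promoters of the same length. The shorter CCAAT, which lies inside it, occurred in the same 7 and in 37.4% of all. The longer CCAATCACATGG, which contains both, occurred in 4 member promoters, those of Nlrp4a, Nlrp4b and Nlrp4c, and in 7 promoters (0.0213%) in all. Nlrp4f and Nlrp9b held none of these letters in their windows. The promoters of Nlrp9a and Nlrp9c shared an identical run of 106 bases, and those of Nlrp4a and Nlrp4f one of 26 bases. The members are close paralogs, and how reads that fit more than 1 copy were counted is not given in the sources used here, so the split of counts within the Nlrp4 and Nlrp9 groups is uncertain.

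In oocytes the family was abundant, and each of the 9 genes had reads in all 7 cells. Together the members took 2990 to 3970 CPM of an oocyte, with a median of 3340 CPM. On the scale of mean length-normalized signal, Nlrp4f stood first with 867, followed by Nlrp4a with 519, Nlrp4b with 438, Nlrp9a with 402, Nlrp9b with 190, Nlrp14 with 188, Nlrp9c with 164, Nlrp2 with 52.4 and Nlrp4c with 30.1. Between neighbours in this order, the B6 and Cast sums did not overlap for Nlrp4f over Nlrp4a, for Nlrp9c over Nlrp2 and for Nlrp2 over Nlrp4c, while the other neighbours overlapped. The ratio of signal to CPM of a member differed 2.7- to 6.53-fold between cells with at least 200 counts, so the length scale orders members only roughly. CPM put 5 of the 9 members at the same rank.

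Nlrp4f, the only member on chromosome 13, had 963 CPM in the B6 oocyte sum and 1320 CPM in the Cast sum. Nlrp4a had 526 and 679 CPM, and Nlrp4b had 661 and 539 CPM. Nlrp2, a maternal-effect gene in the mouse, had 54.9 and 64.8 CPM. For each of these 4 genes the sum of the higher strain was less than 1.5 times that of the lower one. Nlrp4c had the lowest level, 22.2 CPM in B6 and 20.8 CPM in Cast.

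The strain of the oocyte separated 5 of the 9 genes cell by cell, read against 54% of 5257 genes with at least 10 CPM whose 4 B6 and 3 Cast cells did not overlap, so the share of members, 5 of 9, is near that of genes at large. Nlrp9b had 38.9 to 58.9 CPM in B6 oocytes (median 42.4) and 220 to 248 CPM in Cast oocytes (median 243), which was 5.73-fold higher in Cast. Nlrp14 went the other way, with 369 to 1550 CPM in B6 (median 433) and 74.6 to 85.5 CPM in Cast, 5.41-fold higher in B6. These paralogs differed between the strains in opposite directions. Nlrp9a was 2.44-fold higher in B6 (387 to 470 against 154 to 173 CPM) and Nlrp9c 1.78-fold higher in B6 (159 to 294 against 82.7 to 141 CPM). Nlrp4f was 1.35-fold higher in Cast, with 1270 to 1360 against 601 to 1250 CPM. No test was made, since the oocytes of a strain may share a female. Reads were aligned to mm10, a B6 genome, and the part of alignment in these strain differences was not tested.

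**Figure D1:**
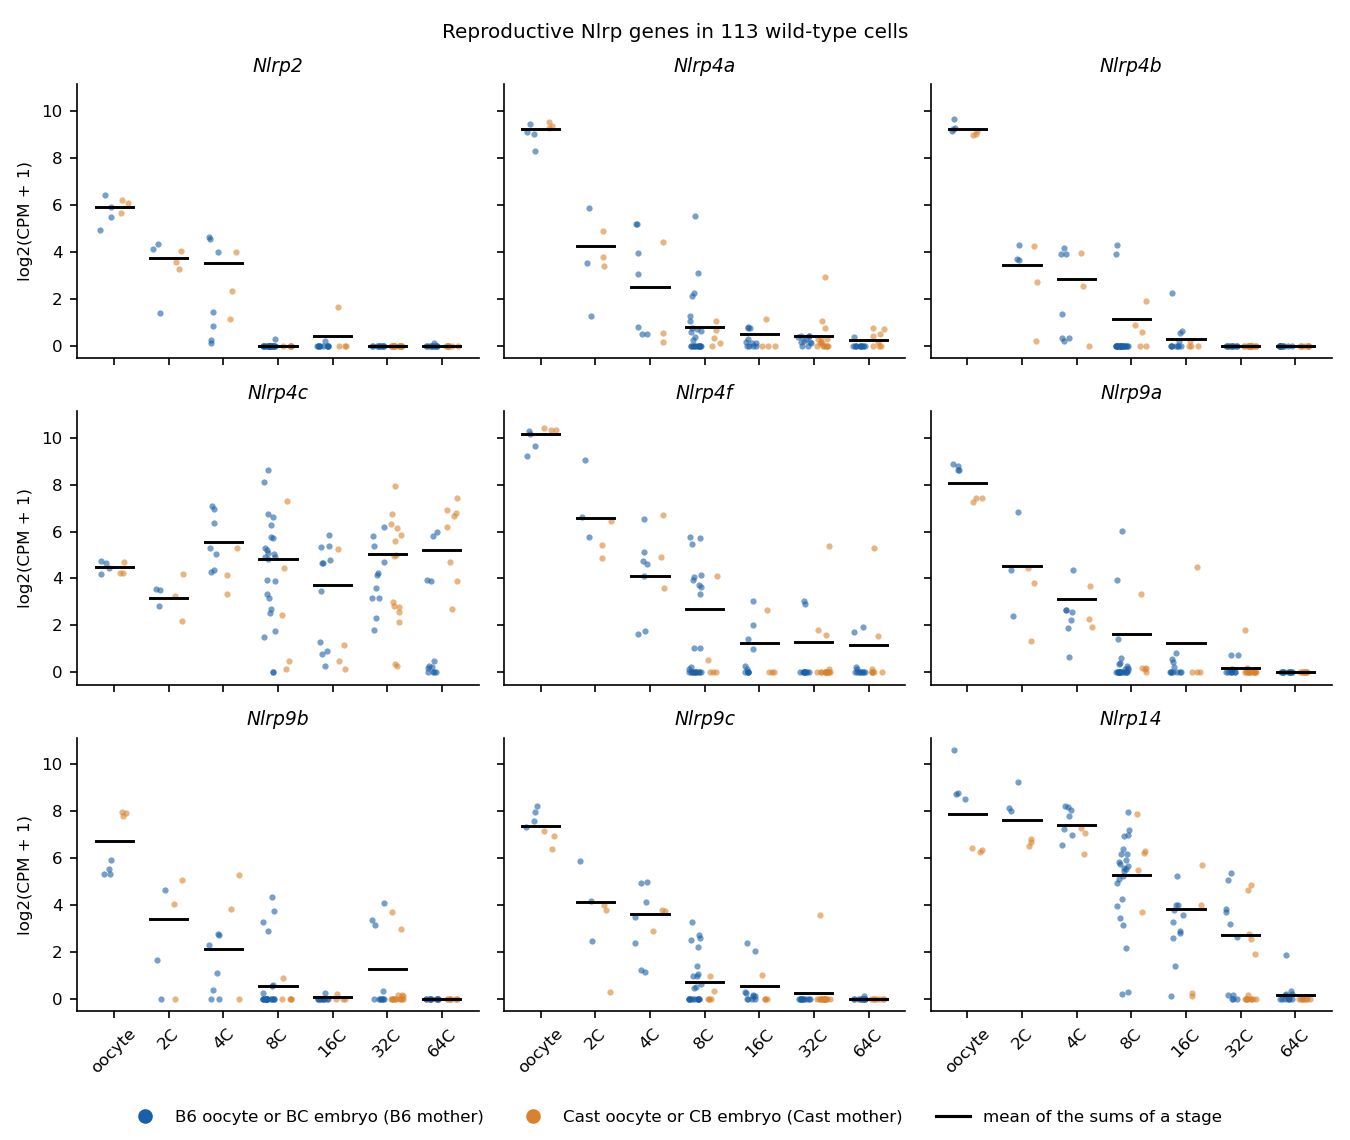
Level of each member in every wild-type cell by stage, as log2(CPM + 1); each point is 1 cell and the black bar is the mean of the sums of that stage. The mean, taken of the log2 values, is highest in oocytes for every member except Nlrp4c, whose mean at 64 cells lies above that of oocytes.

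From the oocyte to the 2-cell stage, 6 of 9 members fell and none rose (edgeR quasi-likelihood test, two-sided, Benjamini-Hochberg adjustment over 16622 genes, adjusted p under 0.05). Of all genes tested, 13.2% fell and 13.8% rose. The median log2 change of the members was -4.39, and that of all genes was 0.04. CPM are shares of a library, so fewer molecules of a transcript and more of all other RNA cannot be told apart. With library sizes alone in place of TMM scaling, the median of all genes moved to 1.45, the split of calls from 2289 higher and 2191 lower to 3497 higher and 882 lower, and 2 members kept their call. The count was also 2 without either oocyte sum, without the 2-cell BC female, CB female or CB male sum, and lay between 2 and 8 over all sums left out.

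Nlrp4b fell most, from 600 ± 86.3 CPM (SD, n = 2 sums) in oocytes to 11.8 ± 6.74 CPM (n = 4 sums) at the 2-cell stage, a log2 change of -7.13 (SE 1.01, adjusted p = 3.37e-05 by edgeR). Nlrp4a fell from 602 ± 108 to 25.8 ± 23.8 CPM (-5.97, SE 1.23, edgeR adjusted p = 0.000717). The sums did not overlap for either gene, and both kept their call in all 25 fits that left out 1 sum. At the 2-cell stage Nlrp4b stood at 1.97% and Nlrp4a at 4.29% of their oocyte levels.

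The 3 Nlrp9 genes changed by similar amounts from unequal starts. Nlrp9a went from 295 ± 181 CPM in oocytes to 38.2 ± 49.5 CPM (-4.46, SE 1.67, edgeR adjusted p = 0.0499), Nlrp9b from 143 ± 137 to 15.9 ± 14.7 CPM (-4.51, SE 1.58, edgeR adjusted p = 0.0367) and Nlrp9c from 171 ± 73.5 to 22.8 ± 23.4 CPM (-4.39, SE 1.44, edgeR adjusted p = 0.0249). They kept 12.9%, 11.1% and 13.3% of their oocyte levels. Nlrp4f went from 1140 ± 252 to 172 ± 233 CPM (-4.13, SE 1.41, edgeR adjusted p = 0.0308), or 15.1%. The calls of these 4 genes were lost without single sums of oocytes or 2-cell embryos. That of Nlrp9a was also lost without single sums of 4-, 8- or 32-cell embryos, and was kept in 12 of 25 fits. The 2-cell BC male sum, which is 1 cell, stood high for Nlrp4f (520 CPM against 28.2 to 73.1 in the other sums), Nlrp9a (112 against 8.35 to 21) and Nlrp9c (57.6 against at most 15.0).

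3 members did not pass the test at this step. Nlrp2 had 54.9 and 64.8 CPM in the oocyte sums and 9.50 to 16.2 CPM in the 2-cell sums (-3.65, SE 1.42, edgeR adjusted p = 0.0598). These sums do not overlap, and the level at the 2-cell stage was 21.2% of that in oocytes. Nlrp4c had 8.65 ± 3.75 CPM at the 2-cell stage, 40.2% of its oocyte level (-2.71, SE 1.13, edgeR adjusted p = 0.0742). Nlrp14, known in the mouse for its need in female fertility, had 268 ± 240 CPM, 69.6% of its oocyte level (-2.07, SE 1.03, edgeR adjusted p = 0.135). Without the B6 oocyte sum this last change was 0.58.

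**Figure D2:**
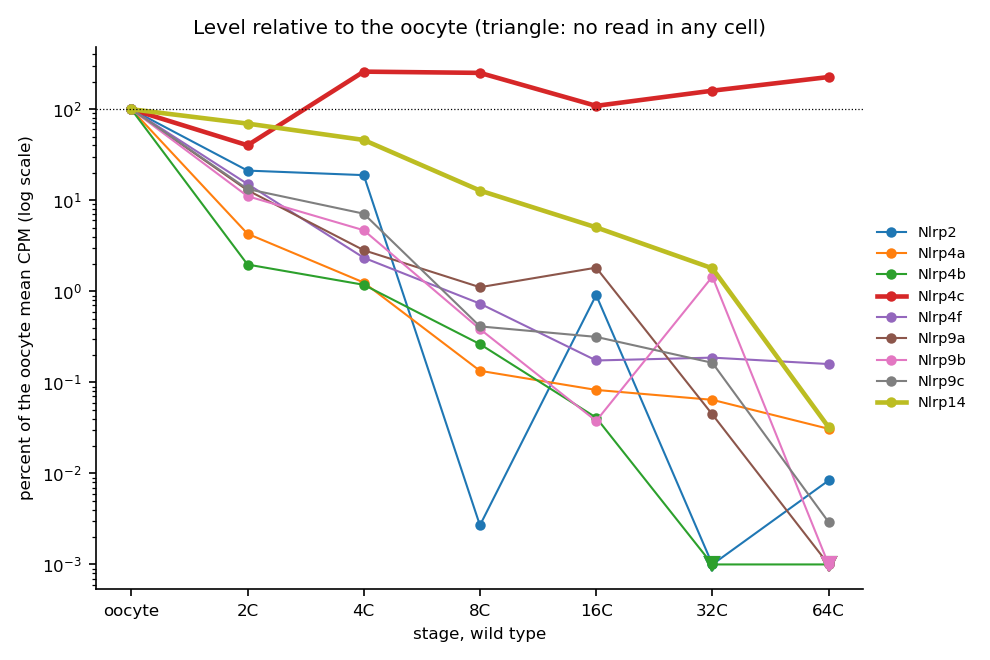
Mean CPM of each member at each wild-type stage as a percent of its mean in oocytes, on a log axis; triangles at 0.001 mark stages with no read in any cell (Nlrp2 at 32 cells, Nlrp4b at 32 and 64 cells, Nlrp9a and Nlrp9b at 64 cells). Nlrp4c returns above 100% from the 4-cell stage, while Nlrp14 passes 46% at 4 cells and 12.8% at 8 cells on its way down.

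Between the 2- and 4-cell stages no member was called in either direction, against 2.92% of all genes lower and 6.61% higher (edgeR), and 1 member had an unadjusted p under 0.05 beside 27.5% of all genes. That member was Nlrp4c, which went from 8.65 ± 3.75 to 55.6 ± 39 CPM (log2 change 3.02, SE 1.06, edgeR adjusted p = 0.0702), and DESeq2 called this 1 member higher, beside 8.75% of all genes. The 4-cell sums were 98.1 CPM in BC females, 47.2 CPM in BC males and 21.4 CPM in CB females, all above the highest 2-cell sum of 12.1 CPM. Nlrp4f went from 172 to 26.7 ± 23.4 CPM and Nlrp9a from 38.2 to 8.36 ± 4.70 CPM, and the sums overlapped for both. Nlrp14 had 177 ± 59.4 CPM (124 to 241) at the 4-cell stage, and it ranked first among the members on the signal scale at both the 2-cell (234) and the 4-cell stage (73.8), at the latter without overlap with the next, Nlrp4c (19.9). Library sizes alone split the calls over all genes 750 higher and 635 lower, against 1098 and 486 with TMM.

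By mean CPM, Nlrp2 kept its level from 2 to 4 cells and was close to absent from the 8-cell stage on. Its 4-cell sums of 5.96, 12.5 and 15.4 CPM overlapped those at the 2-cell stage. Reads were present in all 10 cells of the 4-cell stage, at 0.0704 to 24.1 CPM. The signal scale differed: there its mean went from 28.7 at 2 cells to 5.96 at 4 cells, and the sums did not overlap. At the 8-cell stage 1 read was counted in 29 cells. The test called this fall (edgeR adjusted p = 0.0233), alone among the members and beside 0.0902% of all genes lower and 0.367% higher. The call was lost without any of the 4-cell sums and without the 8-cell BC female sum. Of the late cells, 2 at the 16-cell stage, none of 26 at the 32-cell stage and 1 of 20 at the 64-cell stage had a read, and the 16-cell CB male cell held 14 of the 15 reads of that stage. At the 32-cell stage Nlrp2 was at least 4530-fold lower than in oocytes, taking 3 counts over the stage (0.0132 CPM) as the limit for a count of 0. Such limits cover counting error only.

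By the 8-cell stage 8 of 9 members had fallen from the oocyte (17.7% of all genes fell and 18.2% rose, edgeR), with a median log2 change of -8.87 against 0.71 for all genes. By the 64-cell stage the same count was 8 of 9, against 22.6% of all genes lower and 20% higher. The count stayed at 8 at the 64-cell stage in all 25 fits that left out 1 sum, and ranged from 6 to 8 at the 8-cell stage, where without the B6 oocyte sum Nlrp9a (-5.42) and Nlrp14 were not called. Nlrp4a went through 0.806 ± 0.628 CPM at 8 cells to 0.186 ± 0.180 CPM at 64 cells, 747-fold and 3240-fold below its oocyte mean. Nlrp4b had 1.58 ± 1.78 CPM at 8 cells and no read in 26 cells at 32 and 20 cells at 64 cells, which puts it at least 45500-fold and 32900-fold below oocytes. Nlrp9a and Nlrp9b had no read in the 20 cells of the 64-cell stage, at least 16200-fold and 7850-fold lower than in oocytes, where 3 counts over the stage are 0.0182 CPM. Nlrp9c had 1 read there. Nlrp4f remained measurable, with 8.36 ± 6.66 CPM at 8 cells and 1.81 ± 2.39 CPM at 64 cells, 630-fold below oocytes. At 64 cells 1 CB female cell held 265 of its 331 reads, and without that cell the mean was 0.466 CPM, 2450-fold below oocytes.

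Nlrp14 was lower at each stage than at the one before, by the mean CPM of the sums. The signal scale differed at the first step, with a mean of 188 in oocytes and 234 at 2 cells and overlapping sums. The wild-type means of Nlrp14 were 385 ± 431 CPM in oocytes, 268 at 2 cells, 177 at 4 cells, 49.2 ± 39 at 8 cells, 19.4 ± 21.5 at 16 cells, 6.90 ± 6.18 at 32 cells and 0.124 ± 0.188 at 64 cells. Every cell of the 8- and 16-cell stages still had reads, 29 of 29 and 15 of 15, then 14 of 26 at 32 cells and 5 of 20 at 64 cells. The largest drop was the last (log2 change -5.49, SE 1.10, edgeR adjusted p = 0.042, 1 member of 9 beside 0.108% of all genes lower and 0.0301% higher). The sums of those stages, 2.73 to 16.1 CPM and 0 to 0.398 CPM, did not overlap. Leaving out 1 sum removed this call in 9 of 25 fits, with the log2 change between -7.2 and -4.63; those 9 sums were of BC females and BC males at 16 cells, BC females and CB males at 2 cells, BC males and CB females at 32 cells, and BC females, CB females and CB males at 64 cells. Its fall from the oocyte to 8 cells (-3.97, SE 1.06, edgeR adjusted p = 0.005) was -0.91 and not called without the B6 oocyte sum, where 1 of the 4 cells had 1550 CPM and the next 437.

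No member was called between 8 and 16 cells, against 0.517% of genes lower and 0.0963% higher (edgeR), with 3 members at an unadjusted p under 0.05 beside 18.3% of all genes; DESeq2 called Nlrp4b lower and Nlrp2 higher, beside 5.05% of all genes lower and 2.18% higher. Between 16 and 32 cells Nlrp4b was the member called (edgeR adjusted p = 0.0284, beside 0.439% of genes lower and 0.193% higher), from 0.246 ± 0.208 CPM to no read. That call was lost without the sums of 1 cell, without the 16-cell BC female or BC male sum and without any 32-cell sum. Nlrp9b had 2 reads at 16 cells and 479 reads in 9 of 26 cells at 32 cells, with 2.07 ± 2.43 CPM (0 to 5.52), and no read at 64 cells (edgeR adjusted p = 0.13 and 0.0745). Its sums at 16 and 32 cells overlapped.

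Nlrp4c stood apart from the rest of the family. It was the last member by level in oocytes and at the 2-cell stage. By means it was the first on the signal scale at the 8-, 16-, 32- and 64-cell stages, with 35.8, 26.2, 11.3 and 15.9. On that scale its sums overlapped those of the next member at each of these stages. It led on mean CPM there too. At 8 cells that lead rested on the CB male sum, and in the other sums Nlrp14 had more CPM. The wild-type sums of Nlrp4c in the order BC female, CB female, BC male, CB male were 39.5, 5.30, 15.9 and 155 CPM at 8 cells, where the last is 1 cell. They were 10.6, 0.541, 45.7 and 36.9 CPM at 16 cells. They were 22.3, 35.4, 23.4 and 56.5 CPM at 32 cells, and 15.8, 85.3, 16.0 and 77.0 CPM at 64 cells. At 32 and at 64 cells both CB sums lay above both BC sums, which was not so at 8 or 16 cells. Reads were present in 27 of 29, 15 of 15, 26 of 26 and 16 of 20 cells of these stages. Against oocytes the log2 change was 0.84 (SE 1.21, edgeR adjusted p = 0.611) at 8 cells and 0.29 (SE 1.18, edgeR adjusted p = 0.885) at 64 cells, and neither its direction nor its size held under other settings. Without Nlrp4c, the median cell held 3320 CPM of the family in oocytes, 298 at 2 cells, 274 at 4 cells, 60.1 at 8 cells, 12.5 at 16 cells, 5.75 at 32 cells and 0.126 at 64 cells. With it the last value was 14.9 CPM.

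The allelic table gives the paternal share of a gene's reads per cell, without the number of reads behind it, so the depth of each share is unknown. In wild-type embryos 8 members were read almost wholly from the maternal allele. The paternal share was at most 0.1 in 25 of 25 cells with a value for Nlrp14, 17 of 17 for Nlrp9c, 10 of 10 for Nlrp2, 9 of 9 for Nlrp4b, 7 of 7 for Nlrp9b and 3 of 3 for Nlrp4a. It was so in 11 of 12 cells for Nlrp9a, with 0.115 as the exception, and in 16 of 17 for Nlrp4f, where 1 CB male cell at 8 cells had a share of 1.0. The autosomal genes with a share (14739) had a median paternal share of 0.353 at 2 cells, 0.429 at 4 cells, 0.446 at 8 cells and 0.508 at 32 cells. At 8 cells the 12 Nlrp14 values lay between 0 and 0.0857. No Nlrp14 value was given for oocytes or 2-cell embryos. Every embryo value came from a cell with at least 20 counts of the gene.

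Nlrp4c was read from both alleles. In oocytes 6 of 6 values were at most 0.0357, counted as the share of the other strain. In embryos 65 values had a median paternal share of 0.492, with 18 at most 0.1 and 11 at least 0.9. The 4 values at 2 cells were all wholly B6, maternal in the 2 BC cells and paternal in the 2 CB cells, from cells with 58 to 78 counts. At 4 cells the share of the Cast allele had a median of 0.693 in 7 BC cells, where that allele is paternal. At 8 cells it was 0.571 in 18 BC cells, and 0.972 and 1.0 in the only 2 CB cells with a value, where that allele is maternal. At 32 cells the medians were close to equal, 0.461 in 6 BC and 0.508 in 9 CB cells. At 64 cells they were 0.0 in 4 BC cells and 0.366 in 7 CB cells. All autosomal genes together had Cast shares of 0.416 to 0.607 at these stages apart from 0.328 in BC cells at 2 cells.

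**Figure D3:**
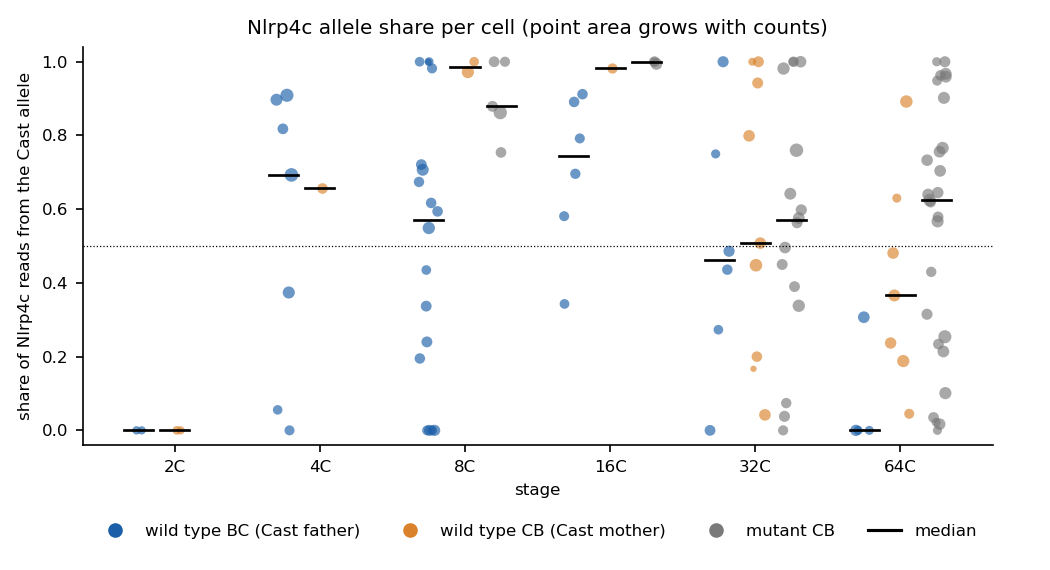
Share of Nlrp4c reads from the Cast allele by stage, cross and genotype, for cells with at least 10 counts; each point is 1 cell, its area grows with the counts, and black bars are medians. Cells of the 4-cell stage and later spread over the whole range from 0 to 1, and the mutant CB cells at 8 and 16 cells lie between 0.754 and 1.0.

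Single cells often read Nlrp4c from 1 allele. Of 40 cells with at least 100 counts at 4 to 16 cells, wild type and mutant, 42.5% had a share at most 0.1 or at least 0.9. Among values of other autosomal genes in the same cells, within 2-fold of the Nlrp4c counts, 36.8% did so. At 32 and 64 cells it was 38.1% of 63 cells against 38.5%. The share of Nlrp4c cells at the extremes was thus close to that of other genes with as many reads.

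Between the crosses no member was called. The CB sums were compared with the BC sums of the same stage and sex in 11 pairs from 2 to 64 cells (0 of 9 members, 0.0124% of 16171 genes by edgeR, or 2 genes) and in the 5 pairs from 2 to 8 cells, when the RNA is more maternal (0 of 9, 0% of 14501 genes). At an unadjusted p under 0.05, 1835 and 1374 genes passed, 11.3% and 9.48%, and 0 members in either. DESeq2 called 788 and 592 genes (4.87% and 4.08%) and 0 members. Over the 11 pairs 5 of the members' log2 differences of CB over BC were below 0 and 4 above, with a median of -0.13 against -0.33 for all genes. From 2 to 8 cells all 9 were below 0, with a median of -0.58 against -0.19 for all genes. Nlrp4f had -1.18 (SE 1.07, edgeR adjusted p = 0.758), and Nlrp14 had -0.58 (SE 0.57, edgeR adjusted p = 0.785), which became 0.46 without sums of 1 cell.

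**Figure D4:**
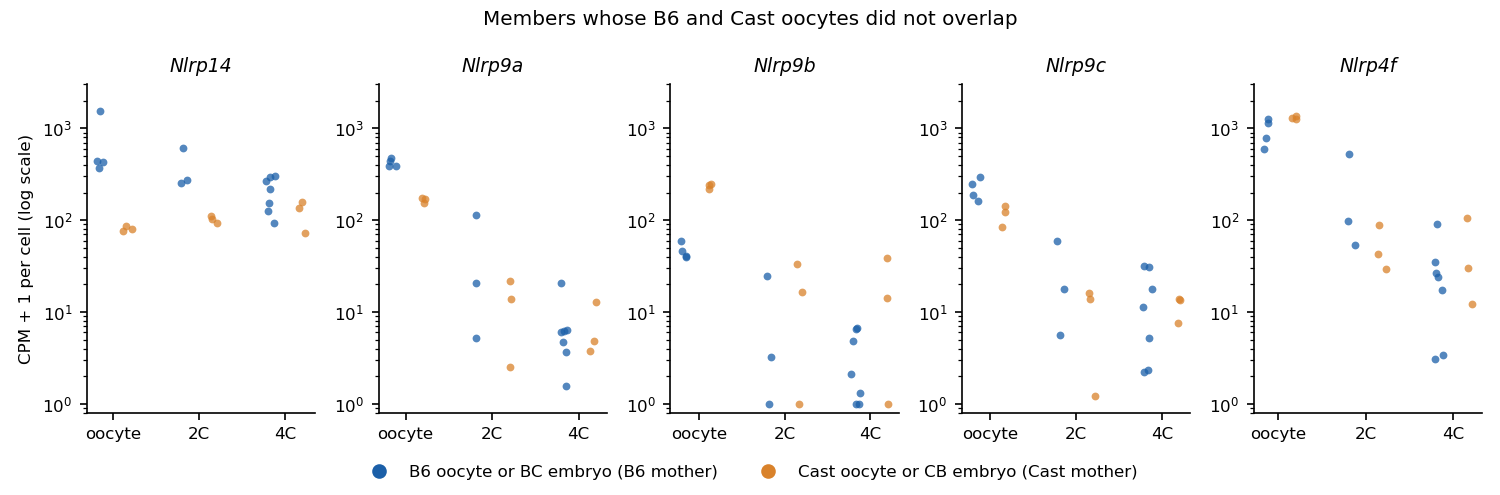
CPM + 1 on a log axis for Nlrp14, Nlrp9a, Nlrp9b, Nlrp9c and Nlrp4f, the 5 members whose B6 and Cast oocytes did not overlap, in oocytes of either strain and in BC and CB cells of the 2- and 4-cell stages; each point is 1 cell. Nlrp14 is higher in B6 than in Cast oocytes without overlap. At 2 cells its BC and CB cells are apart only if the cell of unclear cross is read as CB, and the crosses overlap at 4 cells.

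The strain difference of Nlrp14 in oocytes is set beside the embryos of those mothers as values without a test. At 2 cells the 3 BC cells had 256, 276 and 607 CPM and the 3 CB cells 91.1, 103 and 110 CPM. The cell with 91.1 CPM is the one titled CB with BC in its strain label, and read as BC it would make the crosses overlap. At 4 cells the BC cells had 93.1 to 298 CPM and the CB cells 70.9 to 155 CPM, which overlap. At 8 cells the female sums stood at 49.9 CPM in BC and 103 CPM in CB, and the male sums at 32.0 and 12.1 CPM. Over all stages BC was higher in 8 of 11 pairs, 1 of which rests on that cell. For Nlrp9b, higher in Cast oocytes, the CB sums exceeded the BC sums in 2 of the 5 early pairs, 1 of which rests on the same cell, and in 4 of all 11, with 4 lower.

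Mutant females were compared with CB wild-type females at 8, 16, 32 and 64 cells, 1 sum each per genotype and stage. No member was called (0 of 9, 0% of 14304 genes, edgeR), and all 9 log2 differences were above 0, with a median of 3.86 against 0.12 for all genes. At an unadjusted p under 0.05, 512 genes (3.58%) passed, 5 of them members: Nlrp2, Nlrp4b, Nlrp4c, Nlrp4f and Nlrp9a. DESeq2 called 203 genes (1.42%), 4 of them members, Nlrp2, Nlrp4b, Nlrp4f and Nlrp9a. The mutant cells are deposited in a sheet of their own, and collection and genotype cannot be told apart.

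Nlrp2 had no read in the 4 wild-type CB female sums and 7.14, 0.264, 3.53 and 0.486 CPM in the mutant sums at 8, 16, 32 and 64 cells. Nlrp4b had 0.753 CPM and then no read in wild type, and 3.28, 5.53, 4.64 and 0.456 CPM in mutants. Nlrp9a had 0.0869, 0, 0.267 and 0 CPM in wild type and 9.01, 4.66, 2.58 and 0.035 CPM in mutants. Together with Nlrp4a, Nlrp4f, Nlrp9b and Nlrp9c, these made 7 members that were higher in the mutant sum at all 4 stages. The share of all genes with this pattern was not taken. At 64 cells Nlrp9a, Nlrp9b and Nlrp9c rested on 8, 9 and 7 reads in 25 mutant cells, against no read in 6 wild-type cells. With so few reads, the unequal numbers of cells limit what the direction at that stage can show. The higher sums rested on few cells: the median mutant cell had no Nlrp2 read at any of the 4 stages, and at 8 cells 2 of 7 mutant cells had Nlrp2 reads, 1 of them 51.3 CPM. Nlrp14 had 103 CPM in wild type against 88.1 in mutants at 8 cells, 4.46 against 25.6 at 16 cells, 4.49 against 6.61 at 32 cells and 0 against 0.543 at 64 cells. Nlrp4c had 5.30 against 121, 0.541 against 15.8, 35.4 against 55.5 and 85.3 against 82.0 CPM, so that its difference was seen at the first 3 stages.

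**Figure D5:**
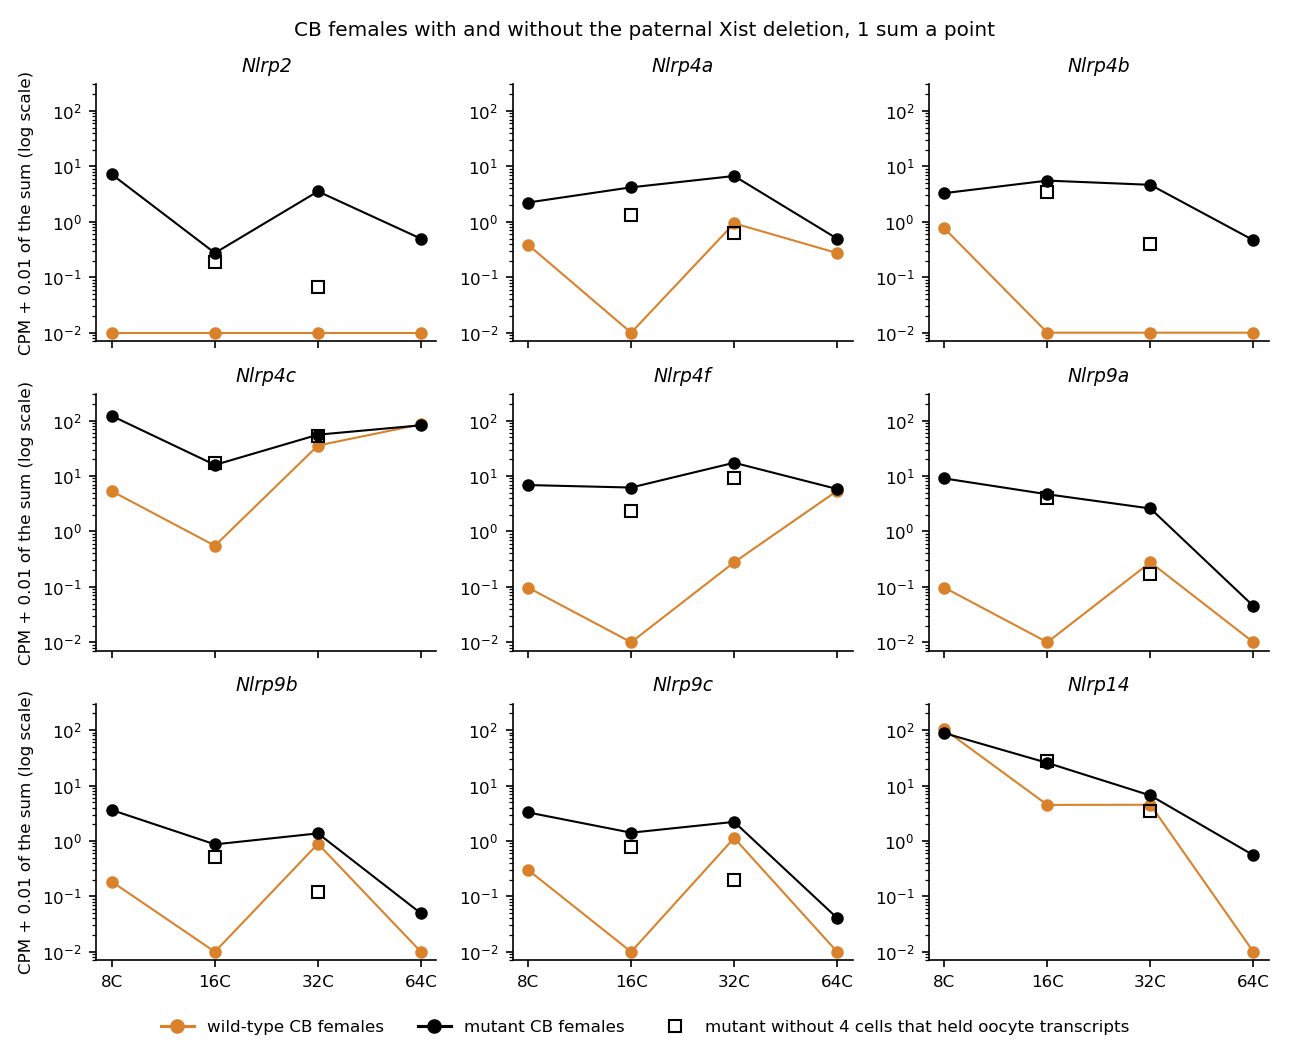
CPM + 0.01 of each member in wild-type and mutant CB female sums by stage, on a log axis; open squares give the mutant sums without 4 cells that held oocyte transcripts. At 32 cells the open squares lie below the full mutant sums for every member, most for Nlrp2 (3.53 and 0.0561 CPM).

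4 mutant female cells, 1 at 16 and 3 at 32 cells, stood out for oocyte growth factor RNA. They were taken, after the values were seen, as cells of 16 cells or later with at least 100 CPM of Gdf9 and 50 CPM of Oosp1, 4 of 123 such cells (62 mutant and 61 wild type). Their Gdf9 levels were 136, 152, 292 and 589 CPM, against at most 79.6 CPM in the other 119, and its paternal share was 0.995 to 1.0. The family without Nlrp4c had 124, 92.3, 144 and 361 CPM in them, against at most 112 CPM in the others. Their Nlrp4a reads had a paternal share of 1.0 in the 3 cells with a value, whereas all 3 wild-type embryo values for Nlrp4a were at most 0.0208. Nlrp2 did not follow: the cell with 474 Nlrp2 counts had a paternal share of 0.0451. In the cell with most Gdf9, Nlrp4f had a share of 0.752 and Nlrp9b a share of 0.0.

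Without these 4 cells the 32-cell mutant sum of Nlrp2 went from 3.53 to 0.0561 CPM, Nlrp4a from 6.70 to 0.617, Nlrp4b from 4.64 to 0.384, Nlrp9a from 2.58 to 0.16 and Nlrp9c from 2.2 to 0.184 CPM. Nlrp9b went from 1.36 to 0.112 and Nlrp14 from 6.61 to 3.40 CPM. 5 of the 9 members, Nlrp4a, Nlrp9a, Nlrp9b, Nlrp9c and Nlrp14, then lay below the wild-type sums of 0.929, 0.267, 0.879, 1.12 and 4.49 CPM. No cell was left out of these wild-type sums, which also rested on few cells. Without its highest cell the wild-type sum was 0.131 CPM for Nlrp4a, 0.0142 for Nlrp9a and 0 for Nlrp9c. These values lie below the reduced mutant sums. No such value was taken for Nlrp9b and Nlrp14. In their wild-type sums the highest cell held 68 Nlrp9b reads and the next 1, and the highest cell held 225 Nlrp14 reads and the next 61. Nlrp4f went from 17.3 to 9.02 CPM and Nlrp4c from 55.5 to 52.6 CPM. At 16 cells the single cell held 71.1% of the Nlrp4a reads and 1.91% of the Nlrp14 reads of the mutant sum. edgeR called 0 of 9 members with or without them. Of the list of 16 other oocyte transcripts 15 were tested between mutant and wild-type females. In the fit that held the 4 cells their median log2 difference was 2.57, against 0.12 for all genes, with 0 called, as among all genes. The list holds Gdf9 and Oosp1, by which the 4 cells were taken, so this median is not independent of that choice. No median without the 4 cells is given here. None of these cells is of the 8- or 64-cell stage. The origin of their RNA was not tested.

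In males, 4 of the 9 members passed the filter on low counts, and 0 of these 4 were called (0% of 11147 genes, edgeR; 359 genes, 3.22%, and 0 members at an unadjusted p under 0.05; DESeq2 called 309 genes, 2.77%, and 0 members). Nlrp4c had 56.5 CPM in wild type against 124 in the mutant collection at 32 cells, and 77.0 against 35.7 at 64 cells. Nlrp2, Nlrp4b and Nlrp9c had no read in either collection at these stages. Nlrp4a had 0.247 against 11.8 CPM at 32 cells, where 1 of 4 mutant cells had 38.3 CPM and the others at most 0.265. Each collection had 1 male sum per stage. Males carry no paternal X, so the deletion is not part of this comparison. With so few cells, a difference between collections and spread between cells or embryos cannot be told apart.

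Genes with a pattern like the family were named by Pearson's r over the 31 sums, out of 8104 genes whose mean reached 10 CPM. The log2(CPM + 1) of a gene was set against the mean of the standardized profiles of the 9 members. The closest were C87414 (0.963), Tcl1b5 (0.955), Gm6367 (0.952), Tcl1b4 (0.951), Eif4e3 (0.949), C86187 (0.949), Obox5 (0.946), Fbxw22 (0.945), Fbxw28 (0.945) and Tcl1b1 (0.944). The points share stages and libraries, and the values are given as a description. C87414 had 1030 CPM in oocytes, 112 at 2 cells and 0.27 at 64 cells. Nlrp14 was most like Nlrp5 (0.908) and Nlrp4c most like Impa1 (0.789), which encodes inositol monophosphatase. The r of Nlrp4c with the other 8 members lay between -0.269 and -0.058, whereas each of those 8 had an r of 0.795 or more with another member.

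The list of subcortical maternal complex genes held 6, with a median log2 change of -2.39 from oocyte to 2 cells. Of these, 3 fell from oocyte to 2 cells, beside 13.2% of all genes, namely Nlrp5 (-2.99, SE 1.12, edgeR adjusted p = 0.0489), Ooep (-3.64) and Zbed3 (-5.98), and none rose. By 8 cells 4 had fallen, now with Tle6, and by 64 cells 4, with Padi6 in place of Ooep, beside 17.7% and 22.6% of all genes. Ooep went from 91.2 CPM in oocytes to 3.63 at 8 cells and 58.3 at 64 cells, and Khdc3 from 13.4 CPM in oocytes to 246 at 64 cells. Of 20 other NOD-like receptors 16 were tested. From oocyte to 2 cells 1 was called higher, Nlrp1a (2.99, edgeR adjusted p = 0.0226), and 0 lower, beside 13.8% and 13.2% of all genes. By 8 cells 4 were lower, the paralogs Nlrp4e (-4.86, edgeR adjusted p = 0.00967) and Nlrp4g (-7.29, edgeR adjusted p = 0.0224), Nod2 and Naip1, and by 64 cells 5, now with Naip5. These were 4 and 5 of 16 genes, beside 17.7% and 22.6% of all genes lower. Nlrx1, a mitochondrial relative, was higher at 64 cells (6.76).

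Of 10 partners of inflammasome NLRPs 8 were tested, and 3 fell from oocyte to 2 cells, beside 13.2% of all genes. These were Casp8, a caspase of cell death (16.1 to 0.177 CPM), Nek7, a kinase that binds Nlrp3 (29.7 to 8.51 CPM), and Txnip, which binds thioredoxin (720 to 26.5 CPM). Pycard, the adaptor that joins NLRP sensors to caspase-1, had 0.161 CPM in oocytes and 12.6 CPM at 64 cells (log2 change 5.44, edgeR adjusted p = 0.0297). Il1b had reads at 8 cells alone, in sums of up to 4.57 CPM, and Casp1 stood at 0.0949 CPM in oocytes. Both Pycard and Casp1 thus lay below 1 CPM in oocytes, where the family summed to 3340 CPM.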

How the data were processed

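Per the submitters' processing notes, reads were aligned to mm10 with TopHat2 2.1.0, handled with SAMtools and counted with HTSeq 0.6.1. Whether counting used strand is not given in the sources used here. Whole-number counts per gene and cell were deposited by the authors. The authors' deposited signal, named RPRT without further explanation, is normalized for depth and gene length. The authors' deposited allelic fraction per gene and cell, without the reads behind it, was taken as the paternal share. Members and lists were chosen with earlier results of these data known. Genes named were the members, the 10 most alike, and list genes past the threshold. Counts of cells of 1 stage, cross, sex and genotype were summed and tested with edgeR 4.0.16 (R 4.3.3, TMM, filterByExpr, quasi-likelihood, two-sided), adjusted by Benjamini-Hochberg over all genes. DESeq2 1.42.0, limma 3.58.1 on the signal, library sizes alone, no filter, covariates and left-out sums were alternatives. The test was tried on simulated data. A 4-fold change was recovered for 24% of changed genes between female genotypes and 7% between male genotypes. Between crosses it was 52% (2 to 64 cells) and 19% (2 to 8 cells), and from 32 to 64 cells 6%. For a 16-fold change these were 77%, 42%, 92%, 85% and 61%. A member without a call may thus still differ. No 2 cells of a sum agreed within sampling noise (891 pairs, lowest chi-square per degree of freedom 14.2). Leaving out the 2 mutant 8-cell cells with most Xist (21.2 and 80.6 CPM) gave 0 member calls; 3 of the other 5 also held Xist reads.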

Additional observations from a re-analysis of the deposited data

Results flagged for a closer look

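In 54 groups of 4 sums or cells, 16 held a value whose gap to its nearest neighbour, over the group's range, passed Dixon's critical value of 0.829. Chance alone marks about 1 in 20 groups, and groups with 3 values at 0 are marked by any read. The values were the highest of their group, in CPM.

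Nlrp2 was marked in the 8-cell BC female sum (0.00645), the 16-cell CB male cell (2.11) and the 64-cell BC female sum (0.02). Nlrp4a was marked in the 32-cell CB female sum (0.929, next 0.247) and Nlrp4b in the 8-cell BC male sum (4.25, next 0.838). Nlrp4f was marked in the 2-cell BC male cell (520, next 73.1), the 32-cell CB male sum (6.14) and the 64-cell CB female sum (5.39). Nlrp9a was marked in the 2-cell BC male cell (112, next 21) and the 16-cell CB male cell (21.1, next 0.324), and Nlrp9c in the 2-cell BC male cell (57.6), the 32-cell CB female sum (1.12) and the 64-cell BC female sum (0.02). Nlrp14 was marked in the 16-cell CB male cell (51.3), the 32-cell BC male sum (16.1) and 1 B6 oocyte (1550, next 437). The 2-cell BC male cell was marked for 3 genes and the 16-cell CB male cell for 3.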

How the results depend on the processing

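Of 554 alternative counts of called members, 507 stayed within 1.5 times, and of 1883 alternative values of single members 1771 kept direction and side of the threshold, 64 lost the call, 30 gained it and 18 turned direction. No paired analysis was possible because the sums over cells carry no replicate number; the cross and genotype fits were blocked by stage and sex (11, 5, 4 and 2 blocks). The male genotype fit could not be run without a sum.

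From oocyte to 2 cells the 6 lower members became 2 with library sizes alone or without the 2-cell cell of unclear cross. From 2 to 4 cells limma on the signal called 7 lower (with 3758 of 16588 genes), and DESeq2 (1455 of 16622 genes higher) and covariates for sex and maternal strain each called 1 higher. limma called 0 lower from 4 to 8, 16 to 32 and 32 to 64 cells in place of 1. From 8 to 16 cells DESeq2 called 1 lower and 1 higher (840 and 362 of all genes). From 16 to 32 cells DESeq2 called 2 lower and 1 higher (477 and 340 of all genes), no filter 2 lower, and the fit without sums of 1 cell (added after seeing the data) 0. From 32 to 64 cells DESeq2 and no filter called 2 lower. From oocyte to 8 and to 64 cells DESeq2 called 5, as 3 members had no adjusted p. It called 4 members between female genotypes in place of 0. Over left-out sums the counts ranged from 2 to 8 (oocyte to 2 cells, lower), 0 to 1 (2 to 4 cells, higher; 4 to 8 and 32 to 64 cells, lower) and 0 to 2 (16 to 32 cells, lower).

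Values that turned were Nlrp14 from oocyte to 2 cells (0.98 by limma, -2.77 to 0.58 over left-out sums); without sums of 1 cell, Nlrp4a (0.37) and Nlrp9a (0.25) from 2 to 4 cells, Nlrp9a from 16 to 32 cells (0.16) and Nlrp14 between crosses at 2 to 8 cells (0.46); Nlrp9b from 8 to 16 cells by limma (0.03); and, over left-out sums, Nlrp4c from 8 to 16 cells (-2.29 to 0.29), Nlrp9a from 16 to 32 cells (-5.67 to 0.13) and Nlrp9c from 32 to 64 cells (-6.58 to 1.61). Nlrp4c from oocyte to 8 cells was -1.3 by limma, -0.11 with covariates, -0.62 without sums of 1 cell and -0.7 to 1.71 over left-out sums. To 64 cells it was -0.34 by DESeq2, -2.0 by limma, -0.24 with covariates and -0.09 to 0.91 over left-out sums. The cause was not tested.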
